A study of Homo sapiens with 12 samples.

Results

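The genes described here are 44 components of the DNA replication machinery, chosen by gene symbol from the 23346 genes of the expression table. They were chosen with earlier results of these data known. Member shares set beside those of all genes therefore describe this list and do not test it. All 44 were found in the table, and all 44 passed the filter on low values that left 16236 genes for testing. They were grouped by step into 4 genes of origin licensing, 14 of the helicase, 18 of the polymerases and the replication fork, 5 of nucleotide supply and 3 of chromatin assembly. RNA was measured by sequencing in SW1990 and CFPAC-1, both established lines of human pancreatic adenocarcinoma, each grown untreated as a monolayer and then sorted by flow cytometry for the GCTM-5 antigen, a cell-surface glycoconjugate of duct-like progenitor and pancreatic cancer cells. The 4 groups were GCTM-5 negative SW1990, GCTM-5 positive SW1990, GCTM-5 negative CFPAC-1 and GCTM-5 positive CFPAC-1 cells, with 3 samples in each and 12 in all. The sorting gates took only cells that stained strongly or not at all, so cells of intermediate staining were not measured. The study's methods describe triplicate sorts of each line. Separate cultures are not stated, nor whether a replicate number marks positive and negative cells of 1 sort, so p-values measure the spread between these sorted samples. Library totals recovered from the table ran from 9969697 reads (positive CFPAC-1 replicate 3) to 26159330 reads (positive CFPAC-1 replicate 1).

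Replication of the genome is prepared before S phase, when the origin recognition complex, CDC6 and CDT1 load the ring of MCM proteins onto DNA. At the start of S phase the kinase CDC7 with its partner DBF4, together with MCM10, turns that ring into the active helicase by joining it to CDC45 and the GINS complex. Polymerase alpha with primase then lays primers, RFC loads the sliding clamp PCNA, and polymerases epsilon and delta extend the strands while FEN1 and LIG1 finish the lagging strand. Ribonucleotide reductase, thymidylate synthase and thymidine kinase supply deoxynucleotides, and chromatin assembly factor places new histones behind the fork. Many of these genes are transcribed in late G1 and S phase by E2F transcription factors. In bulk RNA, fewer cells in S phase and less RNA of these genes per cell cannot be told apart.

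Promoter stretches of 6 members are printed because the members' promoters held a known E2F-type motif at a higher share than promoters at large. The motif letters searched were TTTCCCGC, TTTGGCGC, TTTCGCGC and TTTGCCGC on both strands, where matches may overlap, within 250 bases before to 50 bases after each gene's start in RefSeq (GRCh38.p14). Of 27305 promoters, 908 (3.33%) held such a motif, against 18 of the 38 members with a RefSeq promoter (47.4%) and 5 of the 37 matched genes in a list of other replication genes (13.5%). By step, the motif was present in 2 of 4 licensing promoters, 7 of 11 helicase promoters, 8 of 15 polymerase and fork promoters, 1 of 5 nucleotide supply promoters and 0 of 3 chromatin assembly promoters. A CCAAT box, searched as CCAAT on both strands, was in 20 of 38 member promoters (52.6%) and in 35.7% of all promoters. In the stretches below, read 5′ to 3′ along each gene, capitals mark the E2F-type motif, and in *MCM6* overlapping matches form a single longer run.
CDT1 promoter, chr16:88803728-88803787, strand plus: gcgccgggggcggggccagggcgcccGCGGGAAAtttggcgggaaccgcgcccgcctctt
MCM3 promoter, chr6:52284883-52284942, strand minus: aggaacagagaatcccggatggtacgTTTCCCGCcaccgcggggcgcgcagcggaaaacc
MCM6 promoter, chr2:135876496-135876555, strand minus: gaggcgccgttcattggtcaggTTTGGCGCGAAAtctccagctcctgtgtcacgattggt
PCNA promoter, chr20:5126648-5126707, strand minus: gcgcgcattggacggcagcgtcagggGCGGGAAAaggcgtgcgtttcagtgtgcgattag
RFC3 promoter, chr13:33818068-33818127, strand plus: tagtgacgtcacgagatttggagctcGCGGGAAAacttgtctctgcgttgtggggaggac
TYMS promoter, chr18:657588-657647, strand plus: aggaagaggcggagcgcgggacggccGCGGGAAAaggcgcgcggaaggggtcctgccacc
Among the 6 printed, the same motif letters, GCGGGAAA, stood on the gene strand in *CDT1*, *PCNA*, *RFC3* and *TYMS*, which code for a licensing factor, the sliding clamp, a clamp loader subunit and a nucleotide synthesis enzyme. Of stretches not printed, that of *GINS2* held these letters too. Those nearest the start of *MCM7*, *POLA2*, *POLE*, *LIG1* and *POLA1* held other motif letters on that strand. A match describes the letters of the reference sequence and does not show binding in these cells.

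In CFPAC-1 cells, 43 of the 44 replication genes were higher in GCTM-5 positive than in GCTM-5 negative cells and none was lower. A gene was called where the adjusted p of limma on log2(RPKM + 0.1), corrected by Benjamini-Hochberg over all 16236 genes, was under 0.05, and RPKM is a read count divided by gene length and library size. The median member was 2.75-fold higher (median log2 change 1.46), with a range of fitted changes from 1.26-fold for *RPA3* to 7.71-fold for *CLSPN*. Over all genes tested the median log2 change was 0.05, and 22.3% were called higher and 14.2% lower. All 3 positive samples lay above all 3 negative samples for 43 of 44 members, against 28.1% of all genes. With the study's thresholds, a change over 2-fold and p under 0.01 (taken here as unadjusted), 38 members were higher, against 5.65% of all genes. Positive CFPAC-1 replicate 2 had the lowest value of its group for 35 members, where it was lowest for 35.1% of all genes, and without it 43 members were again called higher.

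In SW1990 cells the same comparison gave smaller changes. 13 of 44 members were higher in GCTM-5 positive cells and none was lower, against 11.3% of all genes called higher and 16.9% called lower. The fitted change was above 0 for 42 of 44 members, and the median member was 1.27-fold higher (median log2 change 0.35, against -0.04 over all genes). The range ran from a log2 change of -0.11 for *PRIM1* to 0.90 for *TIPIN*. Positive and negative samples did not overlap, with the positive ones above, for 21 members, against 17.9% of all genes. No member passed the study's thresholds in SW1990, where 4.59% of all genes did. The count of 13 ran from 3 to 16 when single samples were left out: it was 3 without negative SW1990 replicate 3, 4 without positive SW1990 replicate 1, 5 without positive SW1990 replicate 3, 8 without negative CFPAC-1 replicate 2 and 16 without positive CFPAC-1 replicate 2. Over 24 alternatives other than the study's thresholds, *CDC6* and *MCM2* were called in all, *RFC2* was not called in 1, *CDT1* in 2, *GINS1* and *TIPIN* in 5, *RRM1* in 6, *PCNA* in 7, *MCM6* in 9, *RPA3* in 10, *MCM7* in 11, *MCM4* in 12 and *DUT* in 15. Negative SW1990 replicate 3 had the lowest value of its group for 40 of 44 members, where it was lowest for 29.2% of all genes. Positive SW1990 replicate 1 had the highest value of its group for 41 members and the lowest for 2, where it was lowest for 42.3% of all genes. In the other groups too, replicate 1 was most often the highest. It was so for 34 members in negative SW1990, 26 in positive CFPAC-1 and 20 in negative CFPAC-1 cells. This was not counted over all genes. A fit with a replicate block called more than 13 members, as given below.

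The change with GCTM-5 itself differed between the lines. For 38 of the 44 members the rise in CFPAC-1 was larger than the change in SW1990 in the same model, and for none was it smaller, while 17.8% of all genes differed in that direction and 9.16% in the other. The median difference of the log2 changes, SW1990 minus CFPAC-1, was -1.27, against -0.15 over all genes. *CDT1*, *DBF4*, *RFC5*, *RPA2*, *RPA3* and *TIPIN* were the 6 members whose difference was not called. Centring each sample on its median moved the all-gene median of this difference to 0.00 and that of the members to -1.12. Of all called genes, 61.1% were higher in positive CFPAC-1 cells and 47.8% after centring, and for the difference between the lines the share was 34.0% and 49.99%.

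**Figure D1:**
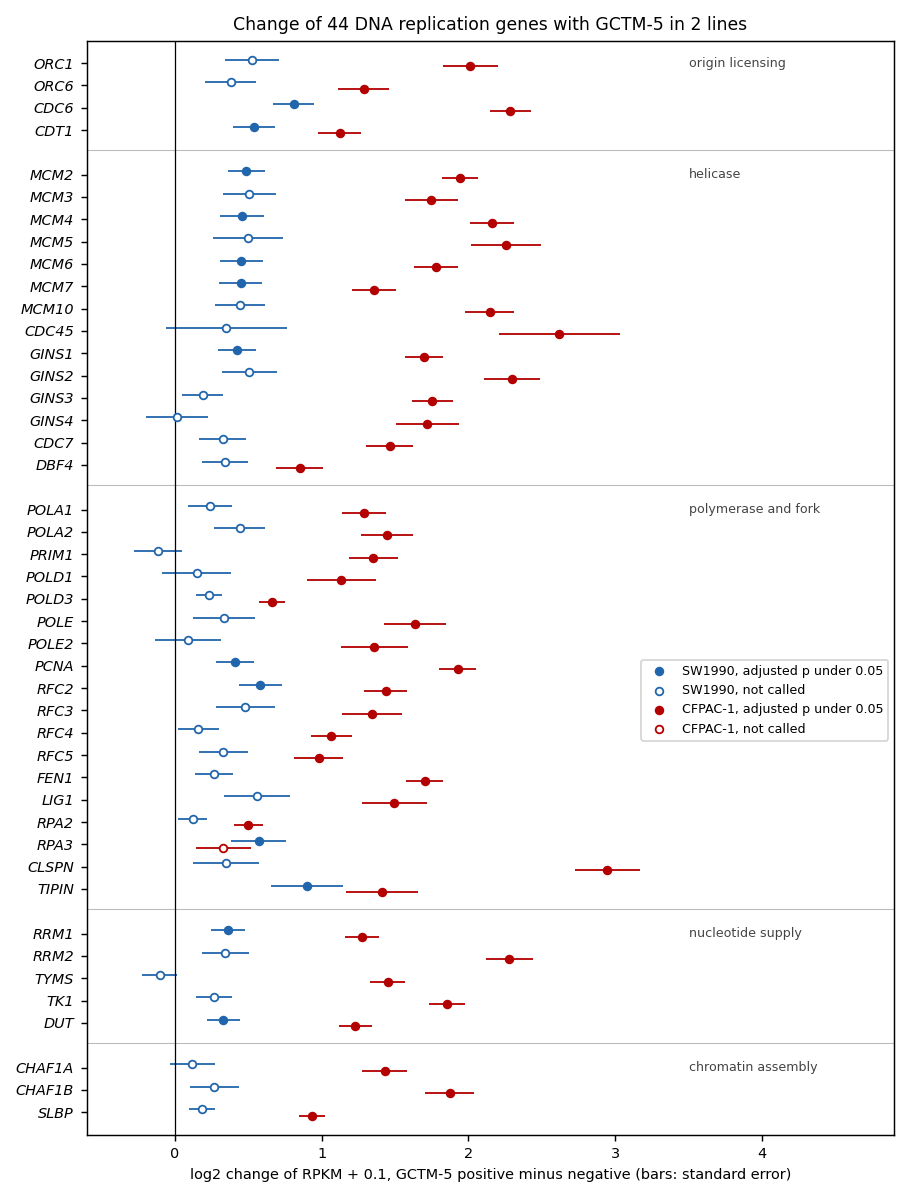
Fitted log2 change of RPKM + 0.1 between GCTM-5 positive and negative cells on the x axis for each of the 44 replication genes on the y axis, arranged by step, with SW1990 in blue, CFPAC-1 in red, bars for the standard error and filled points for adjusted p under 0.05 (3 samples per group). The red points lie to the right of 0 for all 44 genes and are filled for 43, while the blue points lie closer to 0 and are filled for 13.

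All 4 member genes of the licensing step were called higher in CFPAC-1, with a median of 3.14-fold, against 22.3% of all genes called higher. Other genes of this step, such as *ORC2* to *ORC5*, were in the list of other replication genes. *CDC6*, which loads the helicase ring onto origins (GRCh37 chr17:38444131-38460909, plus strand), measured 10.8, 10.8 and 11.3 RPKM in the negative and 58.9, 44.3 and 59.5 RPKM in the positive CFPAC-1 samples. In SW1990, *CDC6* measured 31.7, 30.7 and 23.4 RPKM in the negative and 55.9, 45.7 and 48.3 RPKM in the positive samples. The positive samples were above the negative ones in both lines without overlap, and the negative CFPAC-1 samples were far below all others. This was 4.87-fold in CFPAC-1 (log2 change 2.28 ± 0.14 (SE), adjusted p = 6.78e-06) and 1.75-fold in SW1990 (log2 change 0.81 ± 0.14 (SE), adjusted p = 9.61e-04), where *CDC6* had the smallest p of its step. The difference between these changes was -1.47 on the log2 scale (adjusted p = 2.67e-04).

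*CDT1*, the partner of CDC6 in loading the helicase, was the other licensing gene called in both lines. Its levels were 10.1, 10.4 and 9.39 RPKM in negative and 20.2, 18.5 and 27.6 RPKM in positive CFPAC-1 samples, with 18.5, 19.8 and 15.1 RPKM in negative and 27.9, 24.5 and 24.98 RPKM in positive SW1990 samples. Again neither line had overlapping samples, but the rise was 2.18-fold in CFPAC-1 and 1.45-fold in SW1990, and the difference between them was not called (adjusted p = 0.0532). The SW1990 call was lost without negative replicate 3 (log2 change 0.43, adjusted p = 0.0687) or positive replicate 1. *ORC1* and *ORC6*, subunits of the origin recognition complex, rose 4.04-fold and 2.44-fold in CFPAC-1. In SW1990 their log2 changes were 0.53 (adjusted p = 0.0516) and 0.38 (adjusted p = 0.130).

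All 14 helicase genes rose in CFPAC-1, with a median of 3.404-fold, against 22.3% of all genes called higher. In SW1990, 5 of 14 rose, with a median log2 change of 0.45, against 11.3% of all genes. Of the 6 subunits of the MCM ring, all rose in CFPAC-1, from 2.56-fold for *MCM7* to 4.77-fold for *MCM5*, and in SW1990 their fitted changes ran from 1.36-fold to 1.42-fold, with *MCM2*, *MCM4*, *MCM6* and *MCM7* called. *MCM2*, chosen because it had the smallest p of the step in each comparison (GRCh37 chr3:127317253-127341279, plus strand), measured 10.8, 9.28 and 10.2 RPKM in negative and 41.0, 34.8 and 41.6 RPKM in positive CFPAC-1 samples. In SW1990, *MCM2* measured 26.2, 28.0 and 20.7 RPKM in negative and 36.7, 31.5 and 36.4 RPKM in positive samples. Positive samples exceeded negative ones in both lines, by 3.84-fold in CFPAC-1 (log2 change 1.94 ± 0.12 (SE), adjusted p = 6.78e-06) and 1.40-fold in SW1990 (log2 change 0.49 ± 0.12 (SE), adjusted p = 0.0111), and these changes differed by -1.45 (adjusted p = 1.26e-04).

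The other ring subunits called in both lines were *MCM4*, *MCM6* and *MCM7*. *MCM4* measured 8.81, 8.24 and 8.03 RPKM in negative and 41.8, 32.5 and 39.7 RPKM in positive CFPAC-1 samples, a 4.48-fold rise, and 43.9, 39.8 and 30.3 RPKM in negative and 59.9, 44.6 and 51.2 RPKM in positive SW1990 samples, a 1.37-fold rise. *MCM6* measured 5.66, 5.19 and 4.84 RPKM in negative and 17.9, 15.5 and 21.6 RPKM in positive CFPAC-1 samples, a 3.43-fold rise, and 11.4, 10.5 and 7.90 RPKM in negative and 14.1, 13.2 and 13.1 RPKM in positive SW1990 samples, a 1.37-fold rise. *MCM7* measured 17.7, 16.1 and 14.9 RPKM in negative and 44.5, 33.5 and 48.2 RPKM in positive CFPAC-1 samples, a 2.56-fold rise, and 38.4, 33.9 and 29.0 RPKM in negative and 50.6, 40.1 and 47.6 RPKM in positive SW1990 samples, a 1.36-fold rise. In each case the positive samples of both lines lay above the negative ones. In SW1990 the adjusted p was 0.0392 for *MCM4*, 0.0383 for *MCM6* and 0.0414 for *MCM7*. All 3 of these calls were lost without negative SW1990 replicate 2 or 3, positive SW1990 replicate 1 or 3, or negative CFPAC-1 replicate 2. Without negative SW1990 replicate 3 the log2 changes were 0.30 for *MCM4* (adjusted p = 0.162), 0.30 for *MCM6* (adjusted p = 0.157) and 0.34 for *MCM7* (adjusted p = 0.162). The call of *MCM4* was also lost without negative CFPAC-1 replicate 1 or 3, that of *MCM6* without positive SW1990 replicate 2 and that of *MCM7* without negative CFPAC-1 replicate 3. Summed over the 6 subunits, the group means came to 156 RPKM for negative SW1990, 216 RPKM for positive SW1990, 56.5 RPKM for negative CFPAC-1 and 197 RPKM for positive CFPAC-1. Per length of gene, *MCM5* was the lowest of the 6 in every group and *MCM3* the highest in 3 groups, with *MCM7* highest in negative CFPAC-1 cells. The highest subunit mean was 8.48 times the lowest in negative CFPAC-1 cells and 5.04 to 5.27 times in the other 3 groups.

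The 4 GINS subunits, which join the ring to CDC45, rose 3.25-fold to 4.92-fold in CFPAC-1. *GINS1* was called in both lines, with 8.07, 8.23 and 7.08 RPKM in negative and 31.0, 23.1 and 23.1 RPKM in positive CFPAC-1 samples and 23.0, 21.9 and 18.4 RPKM in negative and 30.3, 26.1 and 28.4 RPKM in positive SW1990 samples. Its positive samples were above its negative samples in both lines, by 3.25-fold and 1.34-fold. Its SW1990 call was lost without negative replicate 2 or 3 or positive replicate 1 or 3 (log2 change 0.33, adjusted p = 0.122 without negative replicate 3). *GINS2* had group means of 5.30 ± 1.02 RPKM (SD, n = 3) in negative and 26.5 ± 5.39 RPKM in positive CFPAC-1 cells, and *GINS3* of 7.57 ± 0.483 RPKM and 25.95 ± 3.74 RPKM. For *GINS4*, the means were 3.21 ± 0.684 RPKM and 10.7 ± 1.46 RPKM in CFPAC-1, and 8.33 ± 1.98 RPKM in negative and 8.42 ± 1.85 RPKM in positive SW1990 cells, where its change was 0.02 (adjusted p = 0.976). *CDC45*, the helicase cofactor, had the largest fold of the step and the fewest reads, with 6 to 10 reads in each negative CFPAC-1 sample. It measured 0.153, 0.159 and 0.2498 RPKM in negative and 1.88, 0.796 and 2.90 RPKM in positive CFPAC-1 samples (log2 change 2.62 ± 0.41 (SE), adjusted p = 6.03e-04), so the positive samples were widely spread but all above the negative ones. *MCM10* rose 4.42-fold, *CDC7* 2.76-fold and *DBF4* 1.80-fold in CFPAC-1, and none of these was called in SW1990.

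**Figure D2:**
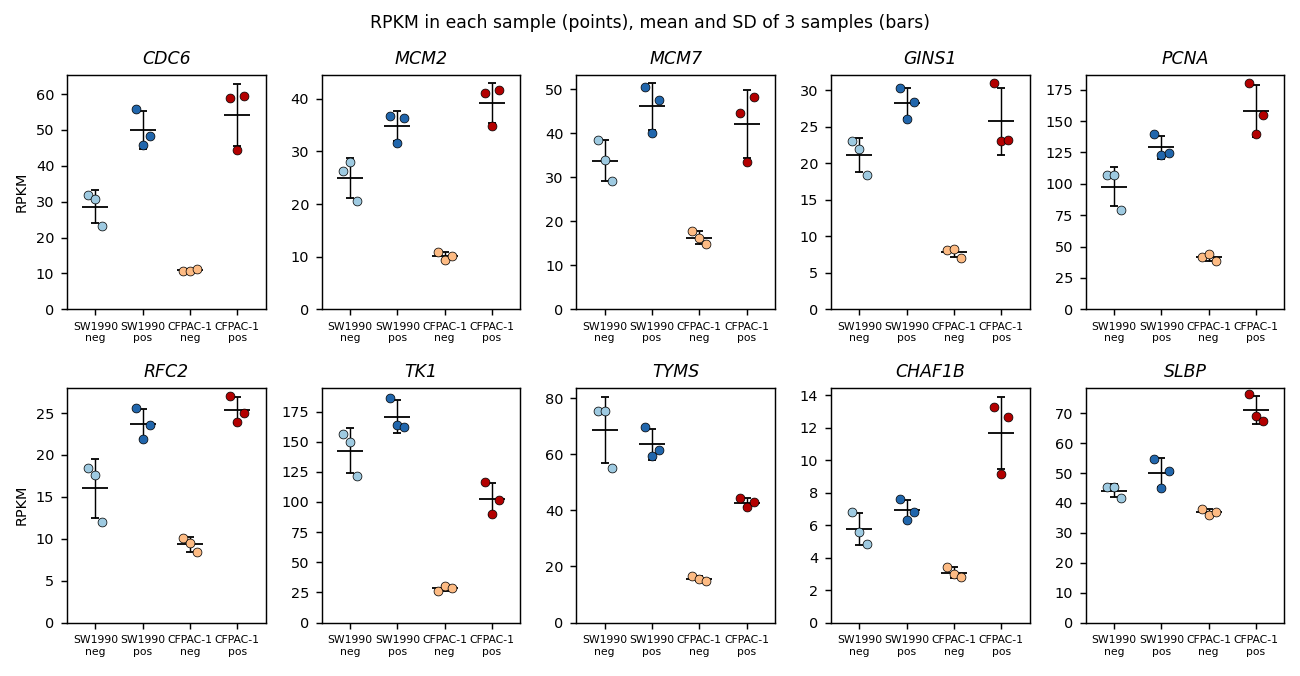
RPKM (y axis, from 0) of *CDC6*, *MCM2*, *MCM7*, *GINS1*, *PCNA*, *RFC2*, *TK1*, *TYMS*, *CHAF1B* and *SLBP* in each of the 12 samples, by group on the x axis, with a point for each sample and bars for the mean and SD of 3 samples. The 3 negative CFPAC-1 samples lie below the other 9 in every panel, and the positive SW1990 samples overlap the negative ones for *TYMS*, *CHAF1B* and *SLBP*.

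Of the 18 polymerase and fork genes, 17 rose in CFPAC-1, with a median of 2.56-fold, and 4 rose in SW1990. The shares of all genes called higher were 22.3% in CFPAC-1 and 11.3% in SW1990. *PCNA*, the sliding clamp that holds the polymerases on DNA (GRCh37 chr20:5095599-5107272, minus strand), measured 41.6, 44.1 and 38.4 RPKM in negative and 180.1, 139 and 155 RPKM in positive CFPAC-1 samples. In SW1990, *PCNA* measured 107, 107 and 79.5 RPKM in negative and 139.8, 123 and 125 RPKM in positive samples. The groups did not overlap in either line, and the rise was 3.80-fold in CFPAC-1 (log2 change 1.93 ± 0.13 (SE), adjusted p = 7.57e-06) and 1.33-fold in SW1990 (log2 change 0.41 ± 0.13 (SE), adjusted p = 0.0321). The SW1990 call was lost without negative replicate 3, where the log2 change was 0.27 (adjusted p = 0.131), and without each of the 3 positive replicates. The changes differed by -1.51 on the log2 scale (adjusted p = 1.27e-04). *FEN1*, the flap nuclease of the lagging strand, rose 3.25-fold in CFPAC-1, and *LIG1*, its DNA ligase, rose 2.82-fold, while in SW1990 their log2 changes were 0.27 (adjusted p = 0.146) and 0.56 (adjusted p = 0.0821).

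*RFC2* to *RFC5*, the member subunits of the clamp loader RFC, rose 1.97-fold to 2.71-fold in CFPAC-1. *RFC2*, which had the smallest p of the step in SW1990, measured 18.5, 17.6 and 12.02 RPKM in negative and 25.6, 21.9 and 23.6 RPKM in positive SW1990 samples. In CFPAC-1, *RFC2* measured 10.0, 9.53 and 8.38 RPKM in negative and 27.1, 23.96 and 25.05 RPKM in positive samples. Its positive samples were above its negative samples in both lines, by 1.498-fold in SW1990 (log2 change 0.58 ± 0.15 (SE), adjusted p = 0.0106) and 2.71-fold in CFPAC-1 (log2 change 1.44 ± 0.15 (SE), adjusted p = 4.82e-05). *RFC3* had group means of 5.73 ± 0.489 RPKM (SD, n = 3) in negative and 14.97 ± 3.61 RPKM in positive CFPAC-1 cells, and 24.1 ± 5.35 RPKM and 33.4 ± 5.81 RPKM in SW1990. *RFC4* stood at 3.86 ± 0.217 RPKM without and 8.25 ± 1.12 RPKM with the antigen in CFPAC-1, and *RFC5* at 8.36 ± 0.492 RPKM without and 16.9 ± 4.21 RPKM with it. In SW1990, the other 3 member subunits had fitted changes between 1.12-fold and 1.40-fold, none of them called.

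Of the replicative polymerases and primase, the 7 subunits among the members all rose in CFPAC-1, by 1.58-fold for *POLD3* to 3.10-fold for *POLE*. None of these 7 was called in SW1990. *POLD4*, a subunit of polymerase delta outside the member list, fell in CFPAC-1, as given below. *PRIM1*, the catalytic primase subunit, had the lowest fitted change of all members in SW1990. It measured 1.30, 1.20 and 0.967 RPKM in negative and 1.13, 1.17 and 0.888 RPKM in positive SW1990 samples, which overlapped (log2 change -0.11 ± 0.17 (SE), adjusted p = 0.671), with 23 to 41 reads per sample. In CFPAC-1, *PRIM1* measured 1.55, 1.60 and 1.41 RPKM in negative and 4.03, 3.86 and 4.19 RPKM in positive samples, all of the positive ones above, by 2.55-fold (adjusted p = 1.39e-04). *POLE2*, the second subunit of polymerase epsilon, rested on 21 to 41 reads per negative CFPAC-1 sample.

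*CLSPN*, the fork protein claspin that links stalled forks to the checkpoint, had the largest fitted change of log2(RPKM + 0.1) among the 44 genes. It measured 1.02, 0.846 and 0.674 RPKM in negative and 8.57, 6.01 and 7.01 RPKM in positive CFPAC-1 samples, a 7.71-fold rise (log2 change 2.95 ± 0.22 (SE), adjusted p = 1.18e-05), and 6.02, 4.27 and 3.80 RPKM in negative and 7.58, 5.12 and 5.28 RPKM in positive SW1990 samples (log2 change 0.35 ± 0.22 (SE), adjusted p = 0.284). The CFPAC-1 groups were far apart and the SW1990 groups overlapped. Without the added 0.1 RPKM this ranking differs. Group means were 0.848 and 7.20 RPKM for *CLSPN* in negative and positive CFPAC-1 cells. For *CDC45* they were 0.188 and 1.86 RPKM, a larger ratio. *TIPIN*, a member of the fork protection complex, had the largest fitted change in SW1990, with 3.19, 4.26 and 2.16 RPKM in negative and 8.497, 4.97 and 4.76 RPKM in positive samples, which did not overlap (log2 change 0.90 ± 0.24 (SE), adjusted p = 0.0156). In CFPAC-1, *TIPIN* measured 3.61, 4.00 and 3.57 RPKM in negative and 10.2, 9.41 and 10.6 RPKM in positive samples (log2 change 1.41 ± 0.24 (SE), adjusted p = 0.00108), and the difference between the lines was not called (adjusted p = 0.305). Its SW1990 call was lost without negative replicate 3 (log2 change 0.65, adjusted p = 0.0680) or positive replicate 1. *RPA3*, the smallest subunit of the single-strand binding protein RPA, was the member not called in CFPAC-1. Its levels were 4.16, 4.10 and 4.94 RPKM in negative and 5.90, 6.02 and 4.78 RPKM in positive CFPAC-1 samples (log2 change 0.33 ± 0.19 (SE), adjusted p = 0.189), and 2.20, 3.13 and 1.99 RPKM in negative and 2.98, 3.99 and 3.93 RPKM in positive SW1990 samples (log2 change 0.57 ± 0.19 (SE), adjusted p = 0.0387). The groups overlapped in both lines, and the difference between the 2 changes, 0.24, was not called (adjusted p = 0.540). The call of *RPA3* in SW1990 was lost without negative SW1990 replicate 1 or 3 (log2 change 0.44, adjusted p = 0.150 without replicate 3), positive SW1990 replicate 2 or 3, or negative CFPAC-1 replicate 1 or 2. *RPA2*, another subunit of RPA, rose 1.42-fold in CFPAC-1.

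All 5 nucleotide supply genes rose in CFPAC-1, with a median of 2.73-fold, against 22.3% of all genes called higher. *RRM1* and *DUT* rose in SW1990, where 11.3% of all genes did. *TK1*, the thymidine kinase of the salvage route, measured 26.1, 30.5 and 28.2 RPKM in negative and 116, 90.004 and 102 RPKM in positive CFPAC-1 samples, a 3.61-fold rise (log2 change 1.85 ± 0.12 (SE), adjusted p = 7.24e-06). In SW1990, *TK1* measured 156, 149.6 and 121 RPKM in negative and 187, 164 and 162 RPKM in positive samples (log2 change 0.27 ± 0.12 (SE), adjusted p = 0.127), all of the positive ones above. *TYMS*, thymidylate synthase of the de novo route (GRCh37 chr18:657653-673578, plus strand), was not called in SW1990. It measured 75.4, 75.4 and 55.1 RPKM in negative and 69.6, 59.4 and 61.4 RPKM in positive SW1990 samples, which overlapped (log2 change -0.10 ± 0.12 (SE), adjusted p = 0.583), and 16.5, 15.5 and 14.7 RPKM in negative and 44.3, 41.0 and 42.9 RPKM in positive CFPAC-1 samples, which did not (log2 change 1.45 ± 0.12 (SE), adjusted p = 1.52e-05). The difference between its changes, -1.55, had the smallest p of the step (adjusted p = 6.36e-05). *TYMS* shares 39.9% of its exonic bases in GENCODE (GRCh37) with *ENOSF1* on the opposite strand, and the labels name a strand-specific library kit but the use of strand in counting is not given in the sources used here. Of the other members, *MCM7*, *GINS1*, *DBF4*, *PRIM1*, *RFC4*, *RFC5*, *FEN1*, *CHAF1A* and *CHAF1B* share between 0.462% and 7.90% of their exonic bases with a neighbouring gene. For *MCM7*, *PRIM1*, *FEN1* and *CHAF1B*, such an overlap lies on the same strand.

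*RRM1* and *RRM2*, the member subunits of ribonucleotide reductase, which makes deoxynucleotides from ribonucleotides, both rose in CFPAC-1. *RRM2B*, a subunit outside the member list, fell there, as given below. *RRM1*, the large subunit, measured 11.8, 11.9 and 11.7 RPKM in negative and 29.9, 26.8 and 29.5 RPKM in positive CFPAC-1 samples, a 2.42-fold rise, and 24.7, 23.2 and 18.7 RPKM in negative and 31.9, 25.2 and 28.3 RPKM in positive SW1990 samples, a 1.28-fold rise (adjusted p = 0.0338). *RRM2*, the small subunit that limits the enzyme in S phase, measured 22.6, 22.5 and 18.5 RPKM in negative and 126, 98.3 and 88.2 RPKM in positive CFPAC-1 samples, a 4.85-fold rise. Positive samples exceeded negative ones for both genes in CFPAC-1 and SW1990, although *RRM2* was not called in SW1990 (log2 change 0.34, adjusted p = 0.140). *DUT*, the dUTPase that keeps uracil out of DNA, measured 15.8, 13.9 and 14.2 RPKM in negative and 36.9, 30.7 and 35.7 RPKM in positive CFPAC-1 samples, a 2.35-fold rise, and 15.6, 16.5 and 12.8 RPKM in negative and 20.4, 18.4 and 17.5 RPKM in positive SW1990 samples, a 1.26-fold rise (adjusted p = 0.0483). Neither line had overlapping *DUT* samples. The SW1990 call of *RRM1* was lost without negative replicate 3 (log2 change 0.24, adjusted p = 0.139) or positive replicate 1 or 3. That of *DUT* was lost when any of 9 single samples was left out, which were negative SW1990 replicates 1 and 3, the 3 positive SW1990 and 3 negative CFPAC-1 replicates and positive CFPAC-1 replicate 1 (log2 change 0.23, adjusted p = 0.191 without negative SW1990 replicate 3).

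The 3 chromatin assembly genes rose in CFPAC-1, with a median of 2.69-fold, against 22.3% of all genes called higher. None of the 3 was called in SW1990. *CHAF1B*, a subunit of chromatin assembly factor (GRCh37 chr21:37757690-37791313, plus strand), measured 3.43, 2.99 and 2.82 RPKM in negative and 13.2, 9.12 and 12.6 RPKM in positive CFPAC-1 samples, a 3.66-fold rise (log2 change 1.87 ± 0.17 (SE), adjusted p = 2.28e-05). In SW1990, *CHAF1B* measured 6.81, 5.56 and 4.86 RPKM in negative and 7.60, 6.31 and 6.79 RPKM in positive samples, which overlapped (log2 change 0.27 ± 0.17 (SE), adjusted p = 0.269), and the changes differed by -1.60 (adjusted p = 4.79e-04). *CHAF1A*, its partner, rose 2.69-fold in CFPAC-1. *SLBP*, which binds the stem-loop of histone mRNAs, had the smallest p of the step in SW1990 without being called, with 45.2, 45.4 and 41.6 RPKM in negative and 54.8, 45.0 and 50.7 RPKM in positive samples, which overlapped (log2 change 0.18 ± 0.09 (SE), adjusted p = 0.147). In CFPAC-1, *SLBP* measured 38.1, 36.0 and 37.1 RPKM in negative and 76.5, 69.2 and 67.4 RPKM in positive samples, a 1.91-fold rise (log2 change 0.93 ± 0.09 (SE), adjusted p = 3.04e-05), the smallest of the 3.

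**Figure D3:**
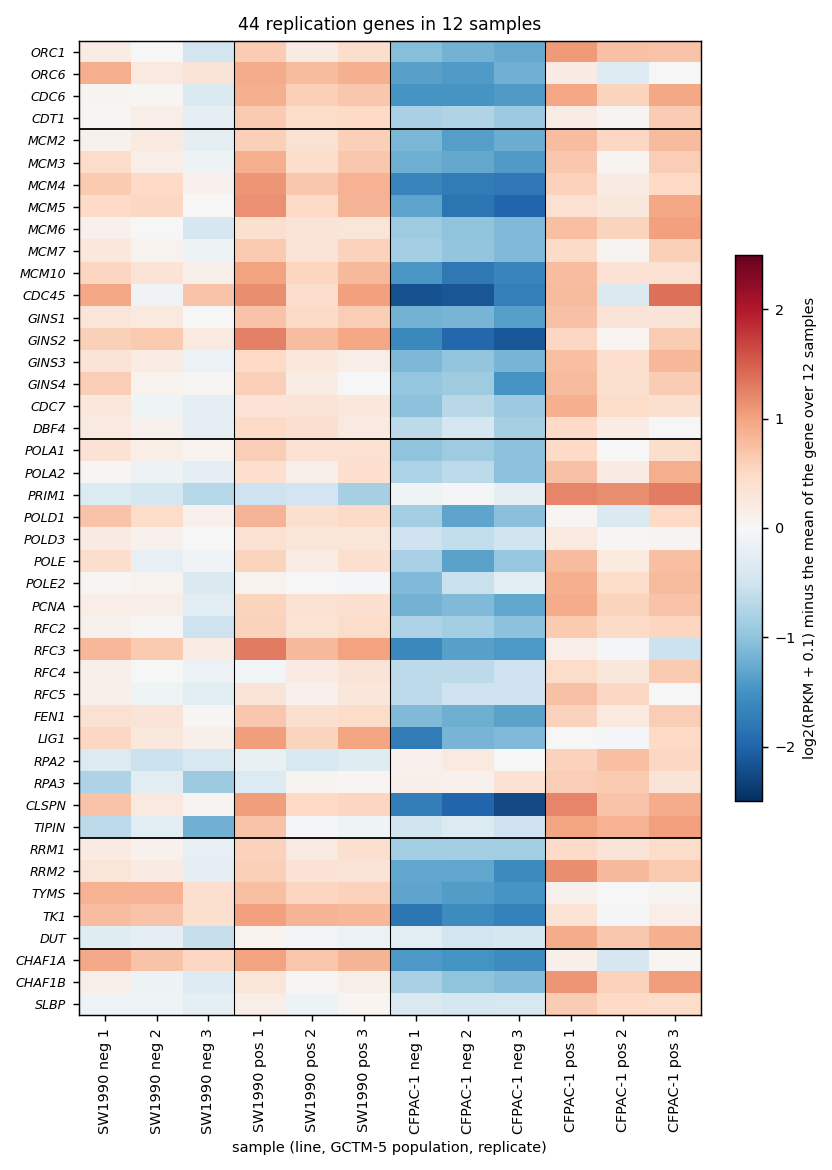
Heat map of the 44 replication genes (rows, by step) in the 12 samples (columns, by group), coloured by log2(RPKM + 0.1) minus the gene's mean over the samples. The negative CFPAC-1 columns are the lowest for most genes, with all 3 below the other 9 samples for 38 of the 44 genes.

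Across the 4 groups, negative CFPAC-1 cells stood apart from the others. They had the lowest group mean for 40 of 44 members, and all 3 negative CFPAC-1 samples were below the other 9 samples for 38 members, against 16.1% of all genes. The exceptions to the latter were *PRIM1*, *POLE2*, *RPA2*, *RPA3*, *TIPIN* and *DUT*. The highest group mean was in positive CFPAC-1 cells for 24 members, in positive SW1990 cells for 19 and in negative SW1990 cells for *TYMS*. The order of group means was not counted over all genes. Summed over the 44 genes, the samples held 401 to 432 RPKM in negative CFPAC-1, 875 to 1167 RPKM in negative SW1990, 1132 to 1412 RPKM in positive CFPAC-1 and 1215 to 1460 RPKM in positive SW1990 cells. The range of negative CFPAC-1 was separate from the rest, and that of positive CFPAC-1 overlapped both SW1990 ranges.

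The lines were also compared directly within each sorted population. In negative cells 39 members were higher and 2 lower in SW1990 than in CFPAC-1, with a median of 2.30-fold, against 40.7% of all genes higher and 28.2% lower. The lower ones were *RPA2* and *RPA3*, and *PRIM1*, *TIPIN* and *DUT* were not called. Centring on sample medians moved the all-gene median of this contrast from 0.19 to 0.01 and the members' median log2 difference from 1.20 to 1.01. In positive cells 8 members were higher and 11 lower in SW1990, 25 were not called, and the median log2 difference was -0.10, against 32.9% of all genes higher and 29.3% lower. *TK1*, *TYMS*, *CHAF1A*, *RFC3*, *ORC6*, *LIG1*, *GINS2* and *MCM4* were the higher ones, of which *RFC3* differed most, at 2.25-fold (adjusted p = 3.19e-04). Among the lower ones, *PRIM1* differed most, at a log2 difference of -1.84 (adjusted p = 1.60e-06), followed by *RPA2* at -0.92 and *DUT* at -0.87. *PRIM1* rested on 23 to 32 reads per positive SW1990 sample and 61 to 154 per positive CFPAC-1 sample. It shares 4.20% of its exonic bases with *NACA* on the same strand. These comparisons share samples with those by GCTM-5 (the negative CFPAC-1 samples, for example), so the results are not independent of each other.

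In a list of 45 other replication genes, 39 rose and 2 fell in positive CFPAC-1 cells, with a median of 1.89-fold, and 4 rose and 3 fell in positive SW1990 cells. Over all genes, 22.3% rose and 14.2% fell in CFPAC-1, and 11.3% rose and 16.9% fell in SW1990. Within the list, the difference between the lines was called for 30 with the larger rise in CFPAC-1 and for 1, *TOP1*, the other way. The shares of all genes were 17.8% and 9.16%. *ASF1B*, a histone chaperone, measured 27.1, 29.3 and 25.6 RPKM in negative and 62.2, 56.0 and 59.9 RPKM in positive CFPAC-1 samples, a 2.17-fold rise (adjusted p = 1.66e-05), and *DSCC1*, a subunit of an alternative clamp loader, rose 3.34-fold (adjusted p = 2.19e-05). The CFPAC-1 groups were fully apart for both. The genes that fell were *POLD4*, a small subunit of polymerase delta, with a log2 change of -0.46 (adjusted p = 0.0438), and *RRM2B*, a ribonucleotide reductase subunit induced by p53, with -0.73 (adjusted p = 0.00142).

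In SW1990 the smallest p values of that list belonged to *TOP1*, *SAMHD1* and *ASF1A*. *TOP1*, the topoisomerase that relaxes DNA ahead of the fork and in transcription, measured 61.2, 56.9 and 55.5 RPKM in negative and 103, 84.6 and 112 RPKM in positive SW1990 samples, a 1.71-fold rise (adjusted p = 7.31e-05), and 70.0, 71.2 and 71.9 RPKM in negative and 58.9, 60.3 and 59.0 RPKM in positive CFPAC-1 samples, where it was not called (log2 change -0.26, adjusted p = 0.0521). *SAMHD1*, which breaks down deoxynucleotides, measured 122, 126 and 109 RPKM in negative and 82.0, 73.4 and 72.8 RPKM in positive SW1990 samples, a log2 change of -0.64 (adjusted p = 0.00193). The histone chaperone *ASF1A* also fell in SW1990 (log2 change -0.45, adjusted p = 0.00999). Both rose in CFPAC-1, by 1.41-fold and 1.29-fold. The differences between the lines were 1.04 for *TOP1* (adjusted p = 2.16e-04) and -1.17 for *ASF1B* (adjusted p = 8.50e-05).

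**Figure D4:**
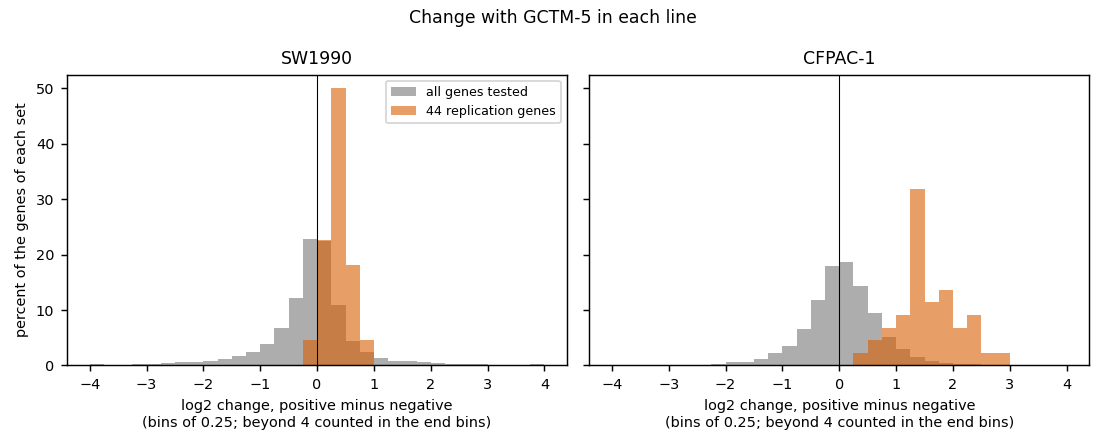
Share of genes (percent of each set, y axis) by fitted log2 change with GCTM-5 (x axis) for all genes tested and for the 44 replication genes, in SW1990 and in CFPAC-1. The replication genes centre on 0.35 in SW1990 and on 1.46 in CFPAC-1, while all genes centre on -0.04 and 0.05.

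Genes of mitosis and markers of other cell types were read beside these changes. Over all genes tested, 22.3% were called higher in positive CFPAC-1 cells and 11.3% in positive SW1990 cells. Of 20 mitotic genes, 18 rose in positive CFPAC-1 cells with a median of 1.82-fold, and 1 rose in positive SW1990 cells. Their summed level ran from 461 to 552 RPKM in negative and from 767 to 1056 RPKM in positive CFPAC-1 samples, and from 679 to 869 RPKM in negative and from 825 to 981 RPKM in positive SW1990 samples. Of 5 duct epithelial markers (*KRT8*, *KRT18*, *KRT19*, *EPCAM*, *CDH1*), none at 0 in any group, *KRT8* and *KRT18* rose in positive CFPAC-1 cells, with sums from 5222 to 6002 RPKM in negative and from 6400 to 7691 RPKM in positive samples. In SW1990 all 5 rose, with sums from 1357 to 1628 RPKM in negative and from 4014 to 4562 RPKM in positive samples. The summed level of 6 fibroblast markers was 1.26 to 2.39 RPKM across the CFPAC-1 samples, with *COL3A1* and *DCN* at 0, and 12.7 to 22.6 RPKM in negative and 3.90 to 4.86 RPKM in positive SW1990 samples, where *COL1A2*, *COL3A1* and *DCN* were at 0. The 4 endothelial markers summed to 0.751 to 1.49 RPKM across the CFPAC-1 samples, with *CDH5* at 0 in the negative ones, and to 14.8 to 18.8 RPKM in negative and 1.47 to 2.05 RPKM in positive SW1990 samples, with *KDR* at 0 in the negative ones. The 5 leukocyte markers summed to 170 to 200 RPKM in negative and 160.0 to 224 RPKM in positive CFPAC-1 samples, and to 34.7 to 48.1 RPKM in negative and 16.0 to 34.4 RPKM in positive SW1990 samples, while *PTPRC* was at 0 in all negative CFPAC-1 samples and *CD3E* in all SW1990 samples. Only 2 of these 5 passed the filter on low values, so the leukocyte sums rested almost wholly on 2 genes. By limma, 3 of 3 fibroblast markers tested, 1 of 3 endothelial markers and 1 of 2 leukocyte markers were called lower in positive SW1990 cells. Over all genes, 16.9% were. The endothelial marker called had a log2 change of -3.46, with the median of the 3 at -0.82 and the highest at 0.09. In CFPAC-1 no marker of these 3 lists was called. The part of these markers in the replication gene results was not tested.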

How the data were processed

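RNA sequencing of 12 samples (4 groups of 3) was used. The authors aligned reads to hg19 (GRCh37) and deposited RPKM values per gene, normalized for library size and gene length with QuasR. bcl2fastq is named in the submitters' processing notes. The annotation, the use of strand in counting and the treatment of reads with more than 1 match are not given in the sources used here. Groups came from the labels, and the p of the study's thresholds was taken as unadjusted. The 44 members and all lists were chosen with earlier results of these data known.

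Values were tested as log2(RPKM + 0.1), so fold changes of low genes are understated. limma 3.58.1 (R 4.3.3; lmFit, contrasts.fit, eBayes with an intensity trend) was fitted to 4 group means over 16236 genes whose RPKM averaged 0.1 or more across the samples. Each contrast was tested 2-sided, with Benjamini-Hochberg adjusted p under 0.05 over all genes tested as the call. The study's own calls used TCC, which needs counts, so limma was used in its place. The script was checked on simulated data. In all 12 samples, library totals and read counts were recovered from the steps of the RPKM values of single-exon genes (GENCODE 44 on GRCh37, tolerance 0.01 read). These totals, 9969697 to 26159330 reads, were used for depth and for an alternative fit.

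Named members were, within each step, those with the smallest p in each sorting contrast and those called in both lines, plus the MCM, GINS and RFC subunits, members whose fitted direction went against their step and, among other replication genes, the 3 with the smallest p per sorting contrast. A gene that this rule names is not reported here. *CLSPN* and *CDC45* were named after their values were seen, as were *POLD4*, *RRM2B* and members at the ends of a range. *TICRR* was matched under its older symbol *C15orf42*. Promoters came from RefSeq (GRCh38.p14), and 6 of 44 members had no entry. Alternatives were another pseudocount, filter, normalization, trend, model or sample set, a replicate block and the study's thresholds.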

Additional observations from a re-analysis of the deposited data

Results flagged for a closer look

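The change with GCTM-5 differed between SW1990 and CFPAC-1 for 38 of the 44 replication genes, by the test of the difference itself in limma, and for each of these 38 the rise was larger in CFPAC-1. Among the members with the smallest p of their step, the log2 change in SW1990 minus that in CFPAC-1 was -1.47 for *CDC6*, -1.45 for *MCM2*, -1.51 for *PCNA*, -1.55 for *TYMS* and -1.60 for *CHAF1B*. Groups of 3 samples were not tested for single samples that stand apart.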

How the results depend on the processing

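Of 44 members, 43 were higher in positive CFPAC-1 cells under every alternative run except the study's thresholds, which gave 38. The SW1990 count was the unstable one. It was 13, and became 5 with each line or population fitted alone, 7 with eBayes without a trend, 8 with reads thinned to the lowest library total, 4 without negative SW1990 replicate 3 and positive CFPAC-1 replicate 2 together, and 0 by the study's thresholds, against 3 to 16 when single samples were left out. The thinning and the joint omission were chosen after seeing the data. With a replicate block it was 20. Deviations of same-numbered samples correlated at r from -0.059 to 0.211 over 18 pairs, 6 of them over 0.1. The 9 pairs without a negative CFPAC-1 sample were all above 0 (0.003 to 0.211) and the 9 with one ran from -0.059 to 0.001, a split made after seeing the data. Among the members, replicate 1 was most often the highest of its group in every group. Not every sample correlated best with its own number (negative SW1990 replicate 3 gave 0.116 with positive replicate 3 and 0.162 with positive replicate 2), so the numbers were not taken to pair the samples, although the sources used here do not settle it. The difference between the lines was called for 38 members, and for 33 to 40 under the alternatives other than the study's thresholds, which gave 27. Between the lines, the 2 members lower in negative SW1990 cells became 0 by the study's thresholds. In positive cells, 8 higher and 11 lower became 1 and 1 by those thresholds, and leaving out single samples gave 5 to 10 higher and 7 to 14 lower, with 5 higher without positive SW1990 replicate 1 or positive CFPAC-1 replicate 2, and 7 lower without positive SW1990 replicate 2 or 3. Fits without single samples also held fewer samples, and the cause of the changed counts was not tested. Among members named for the smallest p or for calls in both lines, no call by GCTM-5 or in the difference between the lines changed direction. Direction was not followed gene by gene for the other members or for the direct comparisons of the lines. Over all genes, the study's thresholds called 746 genes higher and 1215 lower in positive SW1990 cells and 917 and 671 in positive CFPAC-1 cells, against 1831 and 2750, and 3622 and 2307, by adjusted p. The same thresholds gave 866 higher and 1435 lower against 1487 and 2887 for the difference, 3560 and 2433 against 6610 and 4571 in negative cells, and 2402 and 2225 against 5349 and 4764 in positive cells. Depth limits *CDC45*, *PRIM1* and *POLE2* most, with 6 to 10 reads in each negative CFPAC-1 sample for *CDC45*.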

Other observations

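The mitotic genes were read as a neighbouring programme of the cell cycle. *AURKB*, a kinase of chromosome segregation, measured 8.60, 9.66 and 8.04 RPKM in negative and 26.6, 18.1 and 19.2 RPKM in positive CFPAC-1 samples, a 2.39-fold rise by limma (adjusted p = 4.13e-04), and *MKI67*, a nuclear protein of cycling cells, rose 2.23-fold (adjusted p = 3.98e-04). *CDK1*, the mitotic kinase, measured 30.1, 41.997 and 36.8 RPKM in negative and 65.1, 56.6 and 35.3 RPKM in positive CFPAC-1 samples, which overlapped (log2 change 0.49, adjusted p = 0.0649), and *CCNB2*, a cyclin partner of CDK1, was not called either (log2 change 0.26, adjusted p = 0.0972). *PLK1*, a kinase of mitotic entry, was the 1 mitotic gene called in positive SW1990 cells (1.503-fold, adjusted p = 0.00381). These genes were chosen after their values were seen.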
